A study of Mus musculus with 8 samples.

Results

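Transcripts of 53 genes that carry out or control DNA replication were compared between mouse bone marrow mesenchymal stem cells given ellagic acid (EA) and cells given its solvent. The genes were a list of symbols, each matched to 1 row of the deposited table of 21899 genes, and 52 of them had enough reads to be tested. The cells came from the femur. One group received EA, a plant polyphenol, at 10 µM for 48 h, and the control group received an equal dose of DMSO for 48 h. Each group had 4 poly(A) RNA libraries, numbered 1 to 4. The labels name no strain, sex, age or passage. They also leave unsaid whether a group's libraries came from different animals or cultures, and a p-value therefore reflects library-to-library spread that may be technical.

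A genome is copied once per division. In G1 phase the origin recognition complex, Cdc6 and Cdt1 load rings of the MCM2-7 helicase onto DNA, which is called licensing. At the start of S phase the kinase Cdc7 with its partner Dbf4, together with Cdc45, the GINS complex and Mcm10, turns the rings into moving helicases. Primase and the polymerases then copy both strands, held by the sliding clamp PCNA and fed by enzymes that make deoxynucleotides. Many of these genes are known targets of E2F transcription factors, so their mRNAs tend to be high in dividing cells and low in resting ones.

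The promoters of 4 genes are shown because their genes belong to the same enzymes and yet were called in opposite directions: Mcm5 and Mcm6 are subunits of 1 helicase, and Rrm1 and Rrm2 are the subunits of ribonucleotide reductase. Each sequence is the 250 bases before the transcription start on the gene's strand (RefSeq, build GRCm38.p6, which differs from the build of the counts). Capitals mark E2F-type letters (TTTCCCGC, TTTGGCGC, TTTCGCGC or TTTGCCGC, either strand) and the letters CCAAT, read ATTGG on the other strand.
Mcm5, chr8:75109259-75109508, plus strand: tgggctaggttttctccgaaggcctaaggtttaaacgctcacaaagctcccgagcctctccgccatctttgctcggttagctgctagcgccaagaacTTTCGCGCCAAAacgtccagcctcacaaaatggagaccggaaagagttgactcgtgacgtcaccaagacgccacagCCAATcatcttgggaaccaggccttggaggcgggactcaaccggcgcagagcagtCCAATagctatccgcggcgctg
Mcm6, chr1:128359706-128359955, minus strand: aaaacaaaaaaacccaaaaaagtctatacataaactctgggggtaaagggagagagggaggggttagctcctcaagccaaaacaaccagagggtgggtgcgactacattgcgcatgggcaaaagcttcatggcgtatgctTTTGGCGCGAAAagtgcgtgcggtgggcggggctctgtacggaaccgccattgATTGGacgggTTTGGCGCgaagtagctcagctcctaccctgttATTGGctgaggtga
Rrm1, chr7:102441445-102441694, plus strand: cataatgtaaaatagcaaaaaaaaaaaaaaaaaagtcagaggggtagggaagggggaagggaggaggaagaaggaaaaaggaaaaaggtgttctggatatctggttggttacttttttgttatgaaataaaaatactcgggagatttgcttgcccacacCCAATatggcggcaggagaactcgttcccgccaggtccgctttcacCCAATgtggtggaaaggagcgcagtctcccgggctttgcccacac
Rrm2, chr12:24708004-24708253, plus strand: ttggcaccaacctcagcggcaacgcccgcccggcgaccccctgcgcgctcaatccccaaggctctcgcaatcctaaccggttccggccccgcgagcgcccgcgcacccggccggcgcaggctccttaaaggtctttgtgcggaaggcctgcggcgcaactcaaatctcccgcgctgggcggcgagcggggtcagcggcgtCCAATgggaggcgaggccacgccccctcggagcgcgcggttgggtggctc

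The Mcm5 stretch holds 2 overlapping E2F-type matches, 153 and 149 bases before the start. The Mcm6 stretch holds 3, of which those at 110 and 106 bases overlap and that at 47 bases lies apart. Neither ribonucleotide reductase stretch holds any of the 4 spellings searched, and all 4 stretches hold CCAAT. Other E2F-type spellings were not searched. The Rrm1 stretch holds GTTCCCGC and the Rrm2 stretch holds TCTCCCGC, and each differs from TTTCCCGC in a single letter. RefSeq promoter windows (250 bases before the start and 50 after it) were matched by symbol for 44 of the 53 genes, with 52 windows in all. E2F-type letters were in 16 of these windows (30.8%), against 744 of 32851 windows of all genes (2.26%). They were in 13 of 41 windows of genes called lower and in 1 of 3 windows of genes called higher. CCAAT was in 53.8% of the windows of replication genes and in 37.4% of all windows. The TTTGAA letters of the cell cycle homology region were in 17.3% and 17.9%. Base composition was not matched in these shares, and a match is a string of letters, not a bound site.

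Most replication transcripts were lower with EA. By edgeR's quasi-likelihood test, calling genes whose p after Benjamini-Hochberg adjustment over 11777 tested genes was under 0.05, 42 fell, 4 rose and 6 did not pass. Of all tested genes 67.2% were called, 34.2% lower and 33.1% higher. The median log2 fold change was −0.87 over the 52 tested replication genes and −0.02 over all tested genes. A fall of at least 2-fold was called for 18 of the 52, against 8.68% of all tested genes. In 40 of the 53 every EA library was below every control library in CPM, the reads per 1e6 reads of the library after TMM scaling, and in 4 every EA library was above. EA was below without overlap for 30.7% of all tested genes, and the groups did not overlap in either direction for 60.6%. TMM factors are meant to correct for differences in RNA composition between libraries, and whether they did so here was not tested. These are bulk libraries, in which fewer cells in S phase and less mRNA per cell cannot be told apart.

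**Figure D1:**
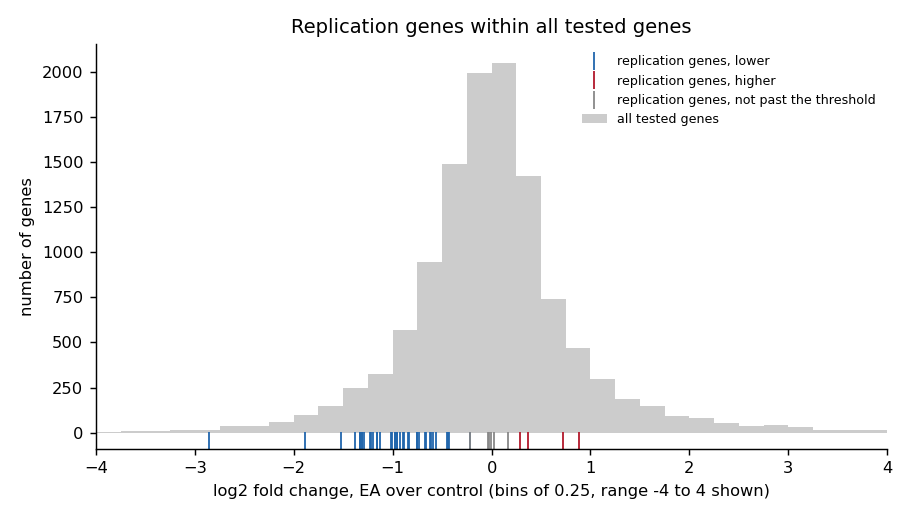
Histogram of the log2 fold change (x axis, EA over control, bins of 0.25) of all 11777 tested genes (y axis, number of genes), with the 52 tested replication genes as ticks under the bars, coloured by call. The ticks lie mostly left of 0, with a median of −0.87, and 4 red ticks lie to the right.

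Library totals ranged from 14112519 to 17390200 reads and did not separate the groups, but the TMM factors did, with a mean of 1.13 ± 0.00642 over the 4 control libraries and 0.882 ± 0.00288 over the 4 EA libraries (SD). Without these factors, on library totals alone, all genes shifted down by a median of 0.36 on the log2 scale. All 42 falling genes were then still called lower, with 47 lower in all, against 61.1% of all tested genes, and of the 4 rising genes only Rrm1 was still called higher, against 16.5%. The labelled cell type was checked against its markers, in CPM on library totals without the TMM factors. These factors differed between the groups, so group differences in the marker values depend on the scaling. Of 10 stromal markers, 9 were above 1 CPM on average, but Thy1 had 19 reads in all 8 libraries. Eng, at a mean of 2.45 CPM in control and 3.11 in EA, and Nt5e, at 4.98 and 5.53, were low too. The stromal markers summed to 16611 to 19051 CPM in control and 18754 to 19531 in EA. Most of this sum was from Col1a1, at a mean of 6354 CPM in control and 6567 in EA, and Col1a2, at 8920 and 9342. Within that sum the markers differed, with Pdgfra at a mean of 155.9 CPM in control and 556.7 in EA. Leukocyte and macrophage markers, of which 3 of 8 were above 1 CPM, summed to 67.0 to 84.3 CPM in control and 52.0 to 56.2 in EA. Nearly all of this was from Cd14, at a mean of 38.6 CPM in control and 8.504 in EA, and Lyz2, at 38.9 and 44.96. The leukocyte marker Ptprc had 33 reads in all, and Itgam and Tyrobp had 1 each. Endothelial markers summed to at most 2.27 CPM. Whether cells other than stromal ones had a part in the results was not tested.

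As a plain share of all reads, the 53 genes took 0.162%, 0.151%, 0.171% and 0.158% in control libraries 1 to 4. In EA libraries 1 to 4 they took 0.0915%, 0.0923%, 0.0944% and 0.0920%. The groups did not overlap, and the EA mean was 0.576 of the control mean. By role the ratio of these unscaled shares ran from 0.383 for helicase activation genes to 0.772 for nucleotide supply genes. The clamp and clamp loader (0.726) and the strand-binding and ligation genes (0.662) were at the upper end too. Licensing genes were at 0.504, G1-S regulators at 0.471, polymerases at 0.460 and chromatin assembly genes at 0.457.

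With the TMM scaling used for the calls, which was added to the comparison of roles after seeing the data, the sums fell less and 2 roles overlapped between groups. Nucleotide supply genes summed to 217.7 to 241.8 CPM in control and 221.9 to 233.9 in EA, a ratio of means of 0.993, with the rise of Rrm1 beside falls of the other 4. Clamp and clamp loader genes summed to 210.4 to 236.6 CPM in control and 200.8 to 212.8 in EA, a ratio of 0.934, with the rise of Pcna beside falls of the loader. In the other 6 roles every EA library stayed below every control library, at ratios from 0.493 for helicase activation to 0.852 for strand binding and ligation.

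**Figure D2:**
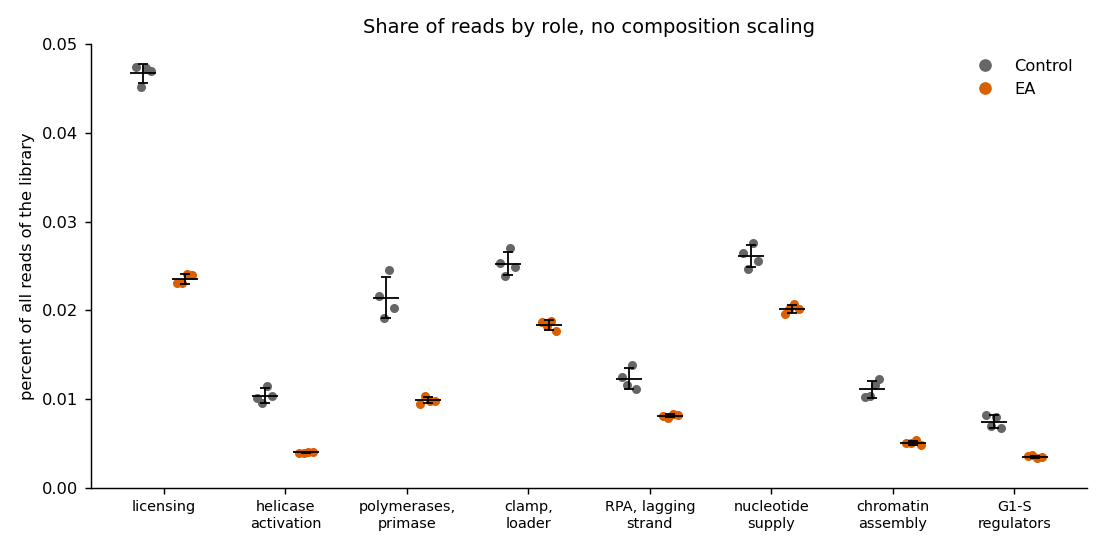
Percent of all reads of a library (y axis) taken by the genes of each role (x axis), for 4 control (grey) and 4 EA (orange) libraries, with mean and SD as black lines. In these unscaled shares the 4 EA libraries are below the 4 control libraries in every role, from a ratio of means of 0.383 (helicase activation) to 0.772 (nucleotide supply), while with TMM scaling the nucleotide supply and clamp roles overlap.

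Among 12 genes of origin recognition and licensing, 10 fell and 1 rose, with a median log2 fold change of −0.69. Mcm7, a helicase subunit (chromosome 5, 138162845 to 138170684, GRCm39), had the largest fall. Its CPM was 56.8, 53.5, 54.3 and 56.5 in control libraries 1 to 4 and 21.8, 20.2, 24.8 and 20.7 in EA libraries 1 to 4. The fall was 1.33 ± 0.08 on the log2 scale (SE, edgeR adjusted p = 3.80e-12), and every EA library was below every control library. Mcm6, another subunit of the same ring (chromosome 1, 128259327 to 128287401), had 42.4, 39.0, 44.0 and 39.0 CPM in controls and 48.5, 51.2, 49.7 and 51.9 with EA. It rose 1.22-fold (log2 fold change 0.29 ± 0.07, edgeR adjusted p = 0.000811) with the groups apart, but with library totals its log2 fold change was −0.071 and not past the threshold.

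The other ring subunits fell as well, 1.89-fold for Mcm3, 1.87-fold for Mcm2, 1.54-fold for Mcm4 and 1.51-fold for Mcm5. In FPKM, the authors' reads per kilobase of gene and per 1e6 reads of the library, their order of level changed. Mcm2 was the highest of the 6 subunits in each control library, at 18.6 to 19.9 FPKM, with Mcm6 at 9.42 to 10.8. In each EA library Mcm6 was the highest, at 9.16 to 9.76 FPKM, and Mcm2 was at 7.44 to 8.54. Mcm5 was the lowest subunit in all 8 libraries. The mean over the 6 subunits was 12.2 ± 0.524 FPKM over the control libraries and 5.99 ± 0.0953 over the EA libraries (SD, n = 4 per group). The highest subunit exceeded the lowest by 2.82 ± 0.327 times in control and 2.68 ± 0.111 times in EA, which overlapped between groups.

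**Figure D3:**
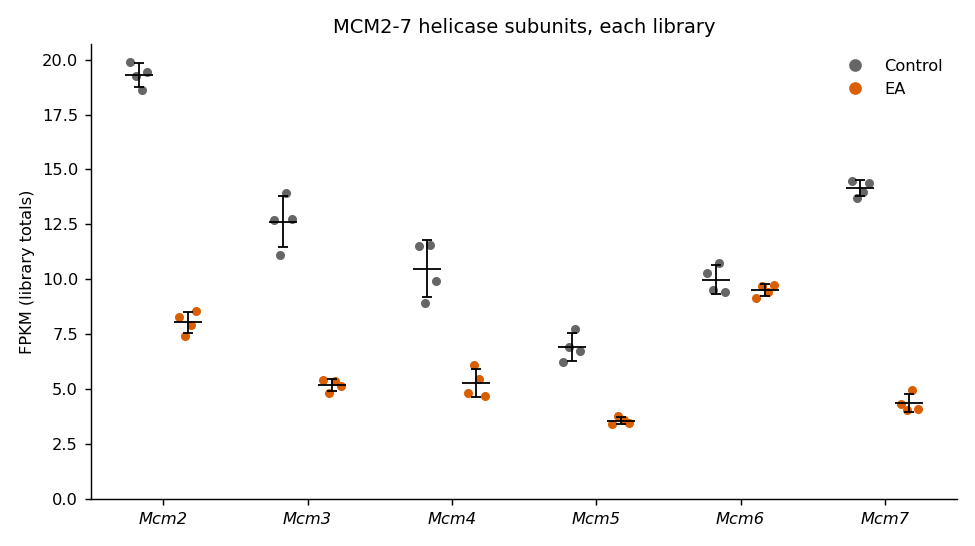
FPKM (y axis, reads per kilobase and per 1e6 reads of the library) of the MCM2-7 subunit genes (x axis) in 4 control (grey) and 4 EA (orange) libraries, with mean and SD as black lines. Mcm6 lies at 9.16 to 9.76 FPKM in EA, inside or next to its control range, while the other 5 subunits are lower in every EA library than in every control library.

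The loading factors upstream of the ring were less even. Cdc6, which helps the origin recognition complex load the ring, fell 2.03-fold, from 7.71 ± 0.904 to 3.81 ± 0.503 CPM. Orc2, a subunit of the origin recognition complex, fell 1.68-fold, from 34.8 ± 4.65 to 20.7 ± 1.33 CPM. It overlaps Nif3l1 on the other strand over 19046 bases, a gene with 1476 reads in control and 953 in EA. Whether reads were shared by Orc2 and Nif3l1 was not tested. Orc6 and Cdt1 each fell by 0.22 on the log2 scale (edgeR adjusted p = 0.0428 and 0.0300). For Orc6 the call was lost without any 1 of the libraries other than EA library 3 (adjusted p up to 0.118), and for Cdt1 without control library 1, 2 or 3 or EA library 1 or 2 (adjusted p up to 0.122). Gmnn, which encodes geminin, the inhibitor of Cdt1, fell 1.79-fold, but from only 216 reads in control and 95 in EA, and its groups overlapped. Orc1 had 3.03 ± 0.420 CPM in controls and 3.43 ± 0.840 with EA and did not pass (edgeR adjusted p = 0.488).

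Of 8 genes that activate the helicase, 7 fell, none rose and the median log2 fold change was −1.17. At least 2-fold falls were called for 6 of them. Dbf4, the activating partner of the Cdc7 kinase (chromosome 5, 8446973 to 8472716), had 28.6, 28.8, 33.7 and 31.6 CPM in controls and 11.1, 11.6, 9.43 and 10.53 with EA. It fell 2.88-fold (log2 fold change −1.53 ± 0.10, edgeR adjusted p = 2.25e-11), and the groups were far apart. Cdc7 itself fell 2.18-fold, from 8.19 ± 0.427 to 3.74 ± 0.238 CPM. Cdc45, which binds the ring as it opens the helix, fell 2.61-fold and Mcm10, which is needed for the helicase to start moving, fell 2.01-fold.

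The 4 subunits of the GINS complex, which sits on the active helicase, differed in size of change and in call. Gins1 and Gins3 fell 2.44-fold and 2.32-fold, and Gins2 fell 1.53-fold. Gins2 overlaps Gse1 on the other strand over 2758 bases, a gene that went from 2472 reads in control to 12348 in EA. The strand setting of the counting is not given, so reads of the pair cannot be told apart. Without control library 3 Gins2 was not past the threshold (log2 fold change −0.42, edgeR adjusted p = 0.0565). Gins4, the most abundant of the 4 per length at 9.49 ± 1.14 FPKM in control, had CPM of 12.3, 9.69, 12.5 and 10.7 in control and 9.97, 10.6, 12.3 and 11.3 in EA. These overlapped (log2 fold change −0.029 ± 0.12, edgeR adjusted p = 0.840), but with library totals Gins4 was called lower (−0.39, edgeR adjusted p = 0.00578).

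Of 9 polymerase and primase genes 7 fell, none rose and the median was −0.95. Pole encodes the catalytic subunit of polymerase epsilon, which copies the leading strand (chromosome 5, 110434172 to 110485340). It had 30.7, 28.1, 36.2 and 30.6 CPM in controls and 8.44, 7.95, 8.97 and 8.61 with EA. Every EA library was below every control library, and the fall was 3.69-fold (log2 fold change −1.88 ± 0.10, edgeR adjusted p = 1.50e-12). The accessory subunit gene Pole2 fell 2.48-fold from 198 reads in control and 63 in EA, with overlapping groups.

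Polymerase alpha, which with primase makes the first stretch of each new strand, had both measured subunits lower, Pola1 2.35-fold and Pola2 1.93-fold. The primase subunit Prim1 had 23.7, 22.5, 29.6 and 22.1 CPM in controls and 14.6, 14.6, 14.9 and 13.9 with EA. It fell 1.69-fold (log2 fold change −0.76 ± 0.10, edgeR adjusted p = 1.96e-06) without overlap, and Prim2 fell 1.48-fold. Polymerase delta, which copies the lagging strand, was divided. Its catalytic subunit Pold1 fell 1.96-fold, from 21.1 ± 2.39 to 10.8 ± 1.04 CPM. Pold2 had 35.1, 34.7, 38.6 and 33.7 CPM in controls and 31.4, 37.0, 31.7 and 38.3 with EA, and Pold3 at 12.8 ± 1.20 and 10.995 ± 1.11 CPM. Neither passed (edgeR adjusted p = 0.694 and 0.106), although with library totals both were called lower, at log2 fold changes of −0.40 and −0.58.

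**Figure D4:**
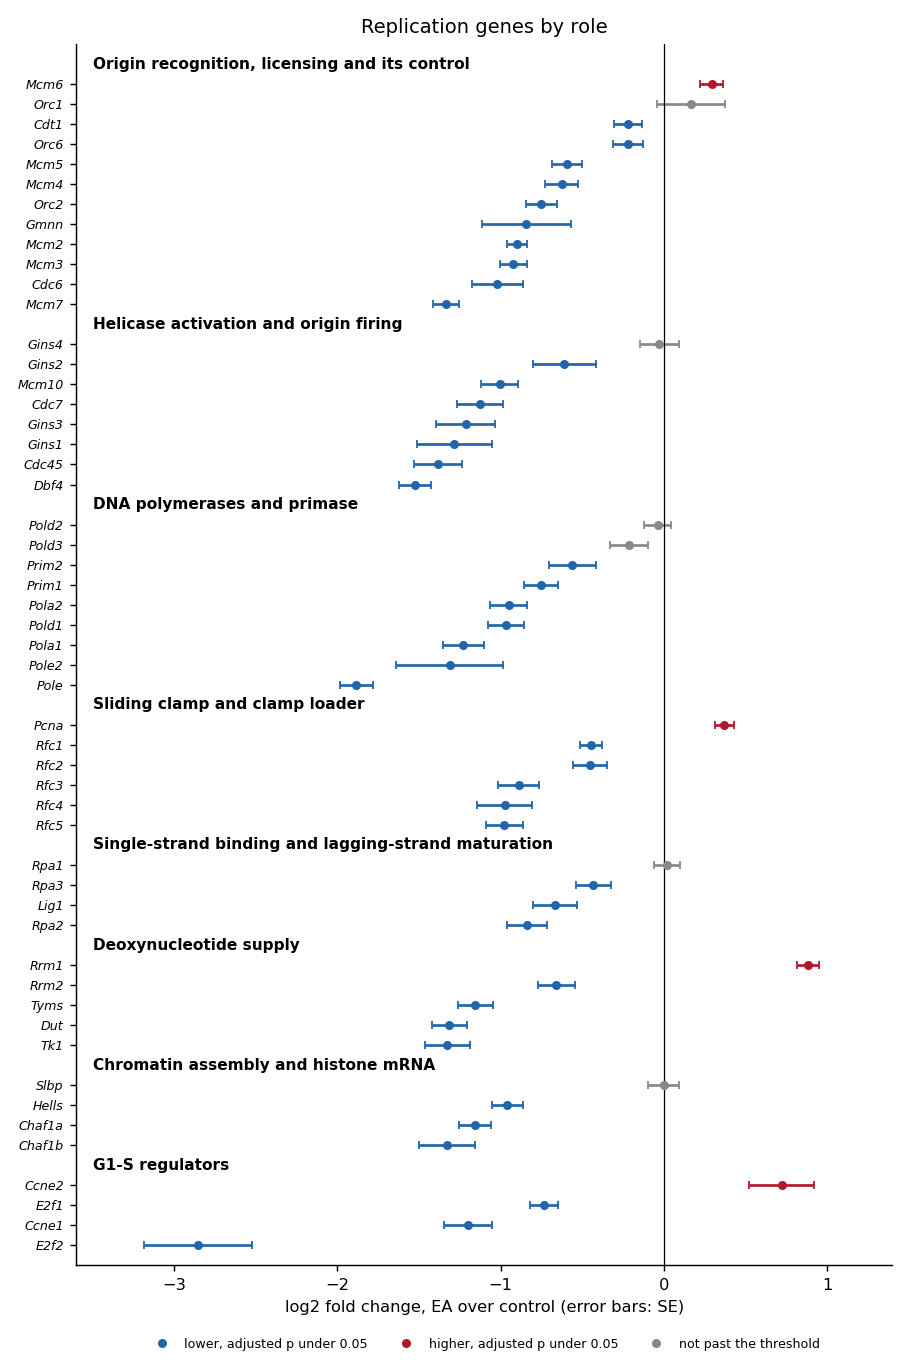
Log2 fold change of EA over control (x axis) with its SE for the 52 tested genes, one per line and grouped by role, coloured by call at an adjusted p under 0.05. The 4 genes called higher are Mcm6, Pcna, Rrm1 and Ccne2, each in a role whose other called genes are lower, and E2f2 lies farthest left at −2.85.

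All 5 genes of the clamp loader, which opens PCNA rings and places them on DNA, fell, whereas the clamp gene Pcna rose. Rfc5 had 18.9, 14.6, 17.8 and 15.1 CPM in controls and 8.12, 8.47, 8.84 and 8.26 with EA. It fell 1.97-fold (log2 fold change −0.98 ± 0.12, edgeR adjusted p = 2.60e-07), and the EA libraries lay closer together than the control libraries. Rfc4 and Rfc3 fell 1.97-fold and 1.85-fold, and Rfc2 and the large subunit gene Rfc1 fell 1.37-fold and 1.36-fold.

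Pcna had the highest level per length of the 53 genes in control, at 44.2 ± 2.18 FPKM, and was at 44.5 ± 1.23 FPKM in EA. Its CPM was 95.4, 88.7, 98.7 and 91.8 in control and 122.8, 120.6, 124.0 and 117.2 in EA, higher in all 4 EA libraries (log2 fold change 0.37 ± 0.06, edgeR adjusted p = 9.07e-06). With library totals the log2 fold change was 0.0080 and the gene was not past the threshold. The ratio of Pcna to Rfc3 within a library, chosen after the values were seen, does not depend on scaling. It was 11.2 to 12.3 in control and 24.2 to 33.4 in EA, in FPKM. Gene symbols of the pseudogene form exist for Pcna and Tyms, and reads shared with such copies cannot be separated.

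Of the 5 genes for single-strand binding and joining of lagging-strand pieces, 3 fell, none rose, 1 did not pass and 1 had too few reads. The RPA trimer coats bare single strands. Its middle subunit Rpa2 had 12.3, 11.7, 11.9 and 13.3 CPM in controls and 6.27, 7.73, 5.98 and 7.47 with EA, a fall of 1.79-fold (log2 fold change −0.84 ± 0.12, edgeR adjusted p = 5.03e-06). Rpa3 fell 1.35-fold, from 16.2, 17.1, 16.3 and 16.4 CPM to 11.4, 14.1, 10.9 and 12.6. Both had all EA libraries below control.

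The large subunit gene Rpa1 had 59.2, 57.4, 70.7 and 53.1 CPM in controls and 62.7, 56.8, 63.9 and 60.2 with EA. These overlapped, and it did not pass with TMM scaling (edgeR adjusted p = 0.839), but it was called lower with library totals (log2 fold change −0.34, edgeR adjusted p = 0.000683). The ligase gene Lig1, which seals the pieces, fell 1.59-fold, from 19.2 ± 3.88 to 12.03 ± 1.44 CPM. Lig1 overlaps Zswim9 on the other strand over 1409 bases, a gene with 834 reads in control and 336 in EA. Whether reads of this pair were shared was not tested. Fen1, the flap nuclease that trims them, had only 14 reads in control and 9 in EA and was not tested. It overlaps Tmem258 on the other strand over 156 bases, and whether its count reflects its expression was not tested.

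Nucleotide supply genes were called in both directions. The median of its 5 genes was −1.16, with 4 lower and 1 higher. Tk1, thymidine kinase of the salvage route, had 23.2, 19.3, 25.9 and 18.5 CPM in controls and 6.43, 8.17, 9.69 and 10.1 with EA. It fell 2.51-fold (log2 fold change −1.33 ± 0.14, edgeR adjusted p = 7.02e-08) with the groups apart. Dut, which keeps uracil out of DNA by removing dUTP, fell 2.49-fold, from 73.6 ± 5.97 to 29.6 ± 5.70 CPM. Its level per length in control, 34.6 ± 2.62 FPKM, was second to that of Pcna. Tyms, which makes thymidylate, fell 2.23-fold.

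The subunits of ribonucleotide reductase, the enzyme that turns ribonucleotides into deoxynucleotides, went opposite ways. The small subunit gene Rrm2 fell 1.58-fold (log2 fold change −0.66 ± 0.11, edgeR adjusted p = 3.78e-05). It had CPM of 17.04, 17.03, 21.2 and 17.1 in control and 12.3, 10.53, 10.1 and 13.0 in EA. The large subunit gene Rrm1 (chromosome 7, 102090902 to 102118978) had 92.1, 81.2, 101.6 and 87.2 CPM in controls and 166.3, 170.5, 176.0 and 155.6 with EA. It rose 1.85-fold (log2 fold change 0.88 ± 0.07, edgeR adjusted p = 3.60e-10) and was also called higher with library totals, at 0.52 (edgeR adjusted p = 9.35e-07). Within a library the ratio of Rrm2 to Rrm1 was 0.735 to 0.833 in control and 0.229 to 0.331 in EA, in FPKM. The ratio was lower in every EA library than in every control library, and it was also chosen after the values were seen.

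**Figure D5:**
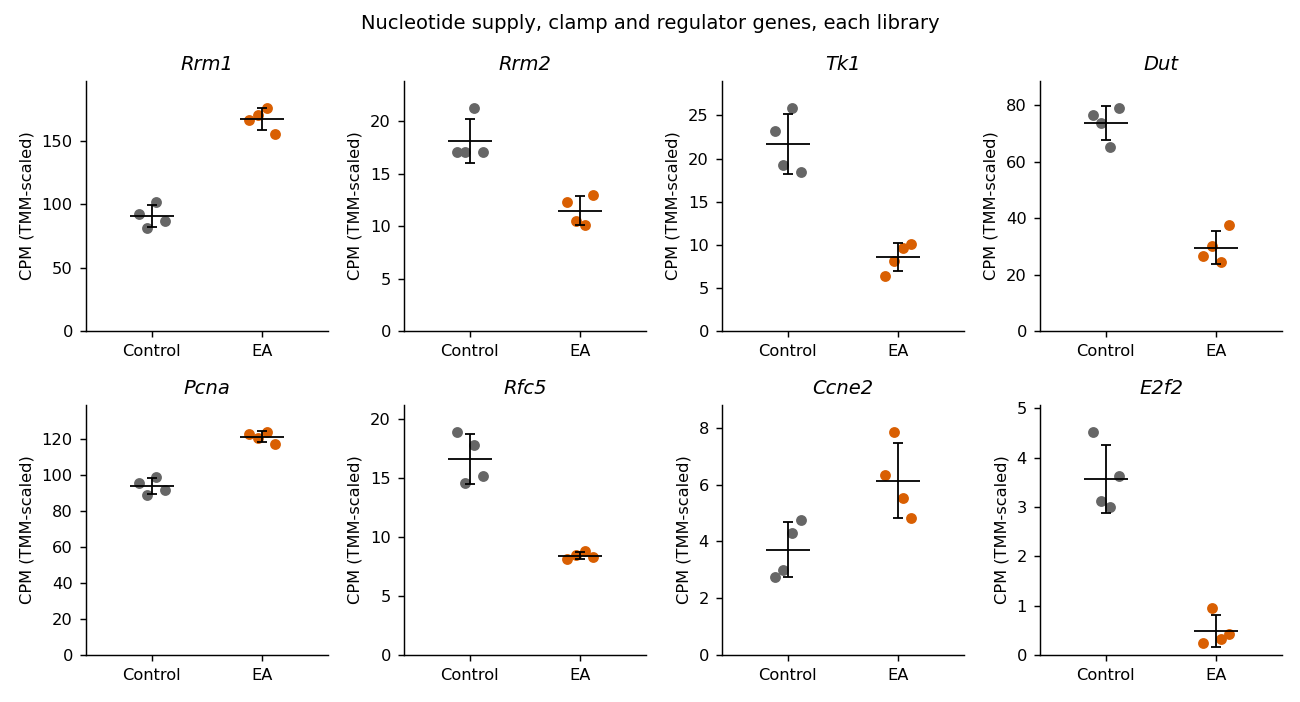
CPM (y axis, TMM-scaled, each panel from 0) of 8 genes in 4 control (grey) and 4 EA (orange) libraries, with mean and SD as black lines. Rrm1, Pcna and Ccne2 are higher in every EA library, and Rrm2, Tk1, Dut, Rfc5 and E2f2 are lower in every EA library.

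Of 4 genes tied to new chromatin 3 fell and none rose. Chaf1b and Chaf1a encode subunits of the chromatin assembly factor that places histones behind the fork. Chaf1b had 7.17, 6.56, 8.87 and 6.72 CPM in controls and 3.22, 3.39, 2.73 and 2.35 with EA, a fall of 2.52-fold (log2 fold change −1.33 ± 0.17, edgeR adjusted p = 8.72e-07). Chaf1a fell 2.23-fold. For both genes every EA library was below every control library. Chaf1a overlaps Ubxn6 on the other strand over 5245 bases, a gene with 753 reads in control and 722 in EA. Whether reads were shared by Chaf1a and Ubxn6 was not tested.

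Hells, a chromatin remodeller of the SNF2 family, had 37.7, 39.2, 43.2 and 51.8 CPM in controls and 21.9, 22.6, 23.0 and 20.9 with EA. It fell 1.95-fold (edgeR adjusted p = 1.83e-08). Slbp, which binds the stem-loop of histone mRNA, did not pass, at 18.4, 21.7, 20.5 and 20.8 CPM in control and 19.5, 20.7, 22.6 and 18.4 in EA (log2 fold change −0.0024 ± 0.094, edgeR adjusted p = 0.984). With library totals it was called lower, at −0.37.

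The regulators of entry into S phase held the largest fall of all 52 genes and 1 rise. E2f2, an activating E2F factor (chromosome 4, 135899705 to 135923368), had 4.53, 3.13, 2.995 and 3.63 CPM in controls and 0.241, 0.957, 0.325 and 0.427 with EA. It fell 7.23-fold (log2 fold change −2.85 ± 0.33, edgeR adjusted p = 1.95e-07), with 252 reads in control and 27 in EA, so few reads set its value in EA. E2f1, the better expressed activating factor, fell 1.67-fold, from 46.7 ± 5.63 to 28.0 ± 1.41 CPM.

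The cyclin E genes, whose proteins activate Cdk2 at the G1-S boundary, parted. Ccne1 fell 2.29-fold, from 11.7 ± 0.987 to 5.12 ± 1.16 CPM (edgeR adjusted p = 4.22e-07). Ccne2 had 2.75, 3.01, 4.30 and 4.74 CPM in controls and 6.35, 7.88, 5.53 and 4.84 with EA. It rose 1.65-fold (log2 fold change 0.72 ± 0.20, edgeR adjusted p = 0.00317), with 4.74 and 4.84 CPM in the closest libraries, and with library totals it did not pass (0.36, edgeR adjusted p = 0.106). Ccne2 also overlaps Ints8 on the other strand over 5622 bases, at 3972 reads in control and 3548 in EA.

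Replication genes outside the 53 were taken from a list of 44, all of which were tested. Of these 32 fell, 4 rose and 8 did not pass, with a median log2 fold change of −0.58. Over all tested genes 34.2% were called lower and 33.1% higher, with a median of −0.02. Named by smallest p, the 4 falls were of fork protection and origin firing factors and of a cyclin. Recql4, a helicase that acts at origins, fell 5.33-fold, from 36.3 ± 5.37 to 6.77 ± 1.63 CPM. Ticrr, which brings Cdc45 to the ring, fell 4.48-fold, Timeless, of the fork protection complex, fell 3.44-fold, and Ccna2, the cyclin of S phase, fell 3.39-fold. Every EA library was below every control library for each of them, which held for 30.7% of all tested genes. Choosing genes by smallest p favours such separation.

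The 4 rises began with Samhd1, an enzyme that breaks down deoxynucleotides. It had 68.5, 62.9, 69.1 and 69.6 CPM in controls and 169.3, 193.3, 189.4 and 179.8 with EA, a rise of 2.71-fold (log2 fold change 1.44 ± 0.06, edgeR adjusted p = 2.47e-14). Cdc25a, a phosphatase that activates Cdk2, rose 1.84-fold, from 11.3 ± 0.747 to 20.9 ± 1.53 CPM. Pole4 rose 1.18-fold and Chtf8 1.93-fold from 0.617 ± 0.301 CPM, and with library totals neither was called higher. Chtf8, with 44 reads in control and 67 in EA, was also not past the threshold without control library 1 or 2 or EA library 3 (edgeR adjusted p = 0.0560 to 0.0972). In the deposited annotation 35 genes carried the KEGG term for DNA replication, 26 of them among the 53. Among the 34 tested, 25 fell and 3 rose (median −0.61), against 34.2% and 33.1% of all tested genes. Most of these were already counted among the 53. Of the 9 tested genes outside the 53, 5 fell and 1 rose.

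Across the 52 tested genes the log2 fold change had a Pearson r of 0.32 and a Spearman rho of 0.34 with the log2 control FPKM, and of −0.14 and −0.19 with the log2 gene length. The genes share the same 8 libraries, and genes are not independent replicates. Among the 53 genes, 13 overlapped another gene of the table that had reads.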

How the data were processed

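Read counts per gene and FPKM values were deposited by the authors for 8 libraries, 4 per group. Per the submitters' processing notes the tools included cutadapt 1.15 and HISAT2 2.0.5, with build GRCm39; no source used here names the counter, strand setting or annotation release. FPKM was made by the authors per kilobase of gene length and per 1e6 reads of the library. The analysis of counts used edgeR 4.0.16 under R 4.3.3 (TMM factors, default filter by group, robust quasi-likelihood F test, no covariates), over all 11777 genes left by the filter. The SE is the size of the log2 fold change divided by the square root of F. The common biological coefficient of variation was 7.78%. Same-numbered libraries did not deviate together, so no pairing was used.

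The genes and lists were chosen with earlier results of these data known. All genes are named. For each role, library values are given for the called genes with the largest fall and rise, or, where none rose, for the largest fall and the highest levels. Other replication genes were named by smallest p, up to 4 per direction. Alternatives used limma 3.58.1 and DESeq2 1.42.0. On simulated counts of 11689 genes edgeR found, at 1.5-fold, 55 of 60 planted changes, at 2-fold 72 of 73, and at 4-fold 65 of 65, with 8 false calls. Those changes were few and balanced, so this does not test the scaling. Figures were drawn with matplotlib 3.10.9.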

Additional observations from a re-analysis of the deposited data

Results flagged for a closer look

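In 3 of 108 groups of 4 libraries (each of the 53 genes, and their share of reads, in each treatment) 1 library stood apart from the other 3 by the gap relative to the range. Chance alone gives about 1 in 20 such groups. Rrm2 was at 21.2 CPM in control library 3, with the nearest other control library at 17.1. Ccne1 was at 6.83 CPM in EA library 1, with the nearest at 4.81. Rpa3 was at 17.1 CPM in control library 2, with the nearest at 16.4. None of these values reached the range of the other group.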

How the results depend on the processing

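Of the 42 genes called lower, 38 were called lower in every alternative that tested them (11 changes of processing and 8 fits without 1 library); the exceptions were Orc6, Cdt1, Gins2 and, at an adjusted p under 0.01, Gmnn. Of the 4 called higher, Rrm1 alone kept that call throughout. With library totals, and with limma on log2(FPKM + 1) and on log2(FPKM + 0.1), 1 of the replication genes and 2 of the other replication genes were called higher; upper-quartile factors also gave 2 of the other genes. Of all 11777 tested genes, 3893 were called higher in the main fit and 1940 with library totals. The FPKM settings gave 1924 and 1922, and upper-quartile factors gave 2830. The median log2 fold change of the 52 was −1.23 with library totals and −1.19 on log2(FPKM + 0.1). The sign changed with library totals, log2(FPKM + 1) and log2(FPKM + 0.1) for Orc1 (−0.19, −0.093 and −0.18), Mcm6 (−0.071, −0.063 and −0.069), Rpa1 (−0.34, −0.31 and −0.33) and Pole4 (−0.12, −0.11 and −0.12). These settings apply no composition factors. With upper-quartile factors Rpa1 was at −0.14, and with RLE factors and DESeq2 Slbp was at 0.0058 and 0.0059.

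Leaving out 1 library gave 39 to 42 genes called lower, 4 called higher, and a median of −0.89 to −0.83. For the other replication genes it gave 27 to 32 lower and 3 to 5 higher, and for the difference in share of reads −0.0712 to −0.0645 points. The sign changed for genes near 0: Orc1 (−0.0028 to 0.25), Rpa1 (−0.033 to 0.11), Slbp (−0.057 to 0.045), Gins4 (−0.090 to 0.029) and Pold2 (−0.088 to 0.011). With the replicate number as a block 41 were called lower and 4 higher, and Orc6 was lost (log2 fold change −0.22, edgeR adjusted p = 0.0636). Same-numbered libraries correlated at −0.021 to 0.027 in their deviations, so these share only a number. The settings for single roles and the share of reads were chosen after seeing the data. Few reads limit the precision for Fen1, E2f2 and Pole2.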
